A study of Homo sapiens with 8 samples.

Results

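The nuclear genes of oxidative phosphorylation were followed through 8 RNA-seq libraries of HMEC-1, a line of human dermal microvascular endothelial cells immortalised with a viral large T antigen. They were taken by symbol from the deposited table: genes starting with NDUFA, NDUFB, NDUFC, NDUFS, NDUFV, UQCR, COX4I, COX5, COX6, COX7, COX8 or ATP5, together with CYC1 and the genes of succinate dehydrogenase. Assembly factors, symbols ending in P and a number, and antisense symbols were left out, which removed 14 rows. The rule found 82 of the 16153 genes in the table. By textbook role, 36 of them encode complex I, 4 complex II, 10 complex III, 15 complex IV and 15 complex V, with NDUFA4 and its paralogue NDUFA4L2 placed in complex IV. The remaining 2, ATP5S and ATP5SL, carry the name of ATP synthase without being subunits of it. The genes that mitochondria themselves encode are not analysed here.

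All libraries came from the same line, grown on gelatin-coated plastic coverslips in automated culture units and fixed in them. The space_microg group has 3 libraries from cells flown to the International Space Station and exposed to weightlessness in the KUBIC incubator. The space_1g group has 2 libraries from cells on the same flight, spun inside that incubator's centrifuge at 1g. The ground group has 3 libraries from cells prepared alongside, which travelled back by airliner and were kept in the KISS facility of the home laboratory. Flight and facility therefore cannot be told apart in the comparisons with ground. Space_microg and space_1g shared 1 incubator and differed in being spun, so gravity cannot be told apart from other effects of the centrifuge. Whether replicates came from different cultures is not stated in the labels, so the error behind each test is that between libraries and may be technical.

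Oxidative phosphorylation couples the oxidation of NADH and succinate to ATP synthesis in the inner mitochondrial membrane. Complexes I, III and IV pump protons as electrons pass to oxygen, complex II feeds electrons in from the citric acid cycle, and complex V, the ATP synthase, uses the proton gradient. Endothelial cells are known for making much of their ATP by glycolysis and for using mitochondria also in biosynthesis and signalling. Most subunits are encoded in the nucleus, while the mitochondrial genome encodes a small set of core subunits, so the complexes are assembled from products of both.

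The values are scaled CPM, the reads of a gene relative to the size of its library after a correction for composition. The libraries held between 24248964 and 35388757 gene reads. The first principal component of all genes, which held 61.9% of the variance, set space_1g replicate 1 (60.7) and ground replicate 3 (64.7) apart from the other 6 libraries (-31.1 to 1.51). Transcript length and GC content accounted for 54.1% of the deviations of all genes from their means in space_microg replicate 2, and for 2.00% to 20.8% in the other libraries. The medians over the members are given with and without the libraries that moved them. All 9 endothelial markers were measured. Their summed levels were 1734, 1159 and 1460 CPM in space_microg, 1461 and 1285 CPM in space_1g, and 1931, 2005 and 1756 CPM in ground. These sums show endothelial transcripts in every library but do not identify the line.

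The promoters of the genes were compared with the rest of the table, since many respiratory chain promoters are known to carry sites for the activator NRF1 and for ETS family factors such as GABP. A RefSeq promoter (GRCh38.p14) was found for 67 of the 82 genes, and the 250 bases before the start were searched on both strands. The NRF1 motif (GCGC, any base, then TGCGC) stood in 19.4% of these promoters, against 10.1% of those of 10807 genes in the table and 5.34% of all 27305 promoters. The ETS motif CCGGAAG stood in 23.9%, against 15.7% and 8.78%. The YY1 motif AANATGGCG stood in 4.48%, which is only 3 of the 67 promoters, against 2.21% and 1.35%. The SP1 motif GGGCGG was at 56.7% of the members' promoters, against 65.7% and 41.6%, and the CCAAT box was at 31.3%, against 34.9% and 32.9%. The motifs differ in letters and none contains another. These are matches of letters, not binding sites.

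The last 100 bases before the RefSeq start are shown for 6 genes named below. They set promoters with an ETS or NRF1 match beside promoters without one. The 6 do not have the largest differences between space_microg and ground. COX7A2, COX7B, COX7A2L, ATP5L, ATP5E, NDUFB1, NDUFA2, NDUFA4, NDUFB6 and NDUFB10 had larger ones than ATP5A1, hold no such match and are not shown. By the gene spans of GENCODE v29, the windows of SDHD, NDUFA1, ATP5A1 and NDUFA5 lie inside the gene. Those of ATP5C1 and COX7C do so in part. Capitals mark an ETS match (CTTCCGG on the strand shown), an NRF1 match (GCGCATGCGC) or an SP1 match (GGGCGG or CCGCCC). SDHD lies at chr11:112086773-112086872 on the plus strand, NDUFA1 at chrX:119871732-119871831 on the plus strand, ATP5A1 at chr18:46098297-46098396 on the minus strand, ATP5C1 at chr10:7788077-7788176 on the plus strand, COX7C at chr5:86617841-86617940 on the plus strand and NDUFA5 at chr7:123557819-123557918 on the minus strand.
SDHD: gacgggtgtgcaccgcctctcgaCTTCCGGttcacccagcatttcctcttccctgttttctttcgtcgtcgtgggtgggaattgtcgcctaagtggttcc
NDUFA1: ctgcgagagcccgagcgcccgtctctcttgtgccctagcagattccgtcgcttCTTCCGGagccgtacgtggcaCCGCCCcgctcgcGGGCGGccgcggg
ATP5A1: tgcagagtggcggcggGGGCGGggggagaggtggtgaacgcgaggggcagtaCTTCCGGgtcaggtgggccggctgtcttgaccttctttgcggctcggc
ATP5C1: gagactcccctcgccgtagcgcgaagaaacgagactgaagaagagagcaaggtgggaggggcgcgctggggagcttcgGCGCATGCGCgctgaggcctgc
COX7C: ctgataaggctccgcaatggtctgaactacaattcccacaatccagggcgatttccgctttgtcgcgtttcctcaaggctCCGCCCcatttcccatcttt
NDUFA5: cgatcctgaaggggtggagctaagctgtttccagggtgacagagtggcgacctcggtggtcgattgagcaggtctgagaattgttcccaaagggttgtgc

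Against ground, most of these genes had higher levels in space_microg. The difference in log2(CPM + 1), the scale of every fold change here, was above 0 for 70 of 82 genes (85.4%), against 47% of all 16103 genes tested. Its median was 0.27 over these genes, with quartiles of 0.12 and 0.38, against -0.02 over all genes tested. No gene of the table passed an adjusted p of 0.05 in limma (0% called), and the lowest adjusted p of a member was 0.866. At an unadjusted p under 0.05, limma counted 8 members (9.76%), all higher, against 4.32% of all genes. These were SDHD, COX6C, COX7A2L, COX7B, COX7C, NDUFA4, ATP5C1 and ATP5E. The same count was 11 in edgeR's quasi-likelihood test and 12 in DESeq2, and neither called a member after adjustment. Both also counted more of the 16103 genes at that threshold, 741 in edgeR and 871 in DESeq2, against 696 in limma. In 9 members (11.0%) every space_microg library stood above every ground library, against 7.88% of all genes, and in 0 did every one stand below, against 6.53%. After each library's trend on transcript length and GC content was removed, limma counted 3 members (3.66%), against 4.35% of all genes with a model. Without ground replicate 2 it counted 1 member (1.22%), against 3.25% of all genes.

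The height of the median came largely from 2 libraries. Each gene's deviation from its own mean over the 8 libraries had a median over the 82 genes of -0.04, -0.02 and 0.46 in space_microg replicates 1 to 3, of -0.16 and 0.06 in space_1g, and of -0.03, -0.32 and 0.04 in ground. Space_microg replicate 3 was thus far above the rest and ground replicate 2 below it, while the other ground libraries overlapped the other space_microg libraries. Space_microg replicate 3 was the highest library for 62 of the 82 genes, and ground replicate 2 was the lowest for 41. The summed level of the 82 genes was 0.520%, 0.554% and 0.707% of a library's total in space_microg, 0.479% and 0.575% in space_1g, and 0.510%, 0.453% and 0.522% in ground. In bulk RNA, fewer cells of a type and less RNA per cell cannot be told apart. Without space_microg replicate 3 the median difference was 0.09 with 55 of 82 genes higher. At an unadjusted p under 0.05, 0 members then passed in limma, against 1.57% of all genes. Without ground replicate 2 the median difference was 0.13 with 66 higher. Without the 2 libraries that the first component set apart it was 0.34 with 77 higher.

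**Figure D1:**
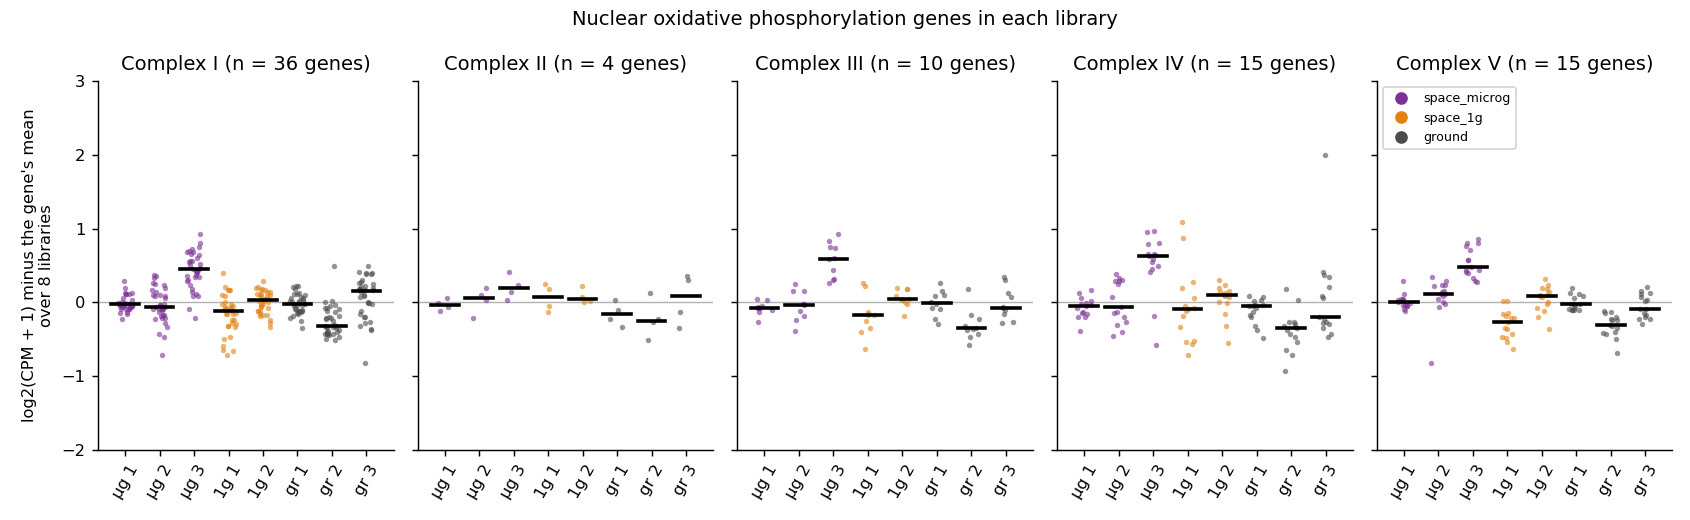
Each point is 1 gene in 1 library, as log2(CPM + 1) minus that gene's mean over the 8 libraries (vertical axis), by complex, with space_microg (μg), space_1g (1g) and ground (gr) from left to right; black bars are medians. In each of the 5 complexes, the highest median is that of space_microg replicate 3 and the lowest that of ground replicate 2.

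The complexes did not show the pattern evenly, as the plot of deviations by library shows. The median difference between space_microg and ground was 0.19 for complex I, 0.14 for complex II, 0.28 for complex III, 0.30 for complex IV and 0.31 for complex V. All 15 genes of complex V were higher in space_microg, as were 13 of 15 of complex IV, 9 of 10 of complex III, 3 of 4 of complex II and 29 of 36 of complex I. Without space_microg replicate 3 the medians of complexes I to V were 0.05, 0.06, 0.04, 0.09 and 0.15, and without ground replicate 2 they were 0.09, 0.03, 0.16, 0.27 and 0.20. Per kilobase of transcript, the median level over all libraries was 42.6 CPM for complex I, 54.4 for complex II, 42.2 for complex III, 61.9 for complex IV and 53.0 for complex V.

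**Figure D2:**
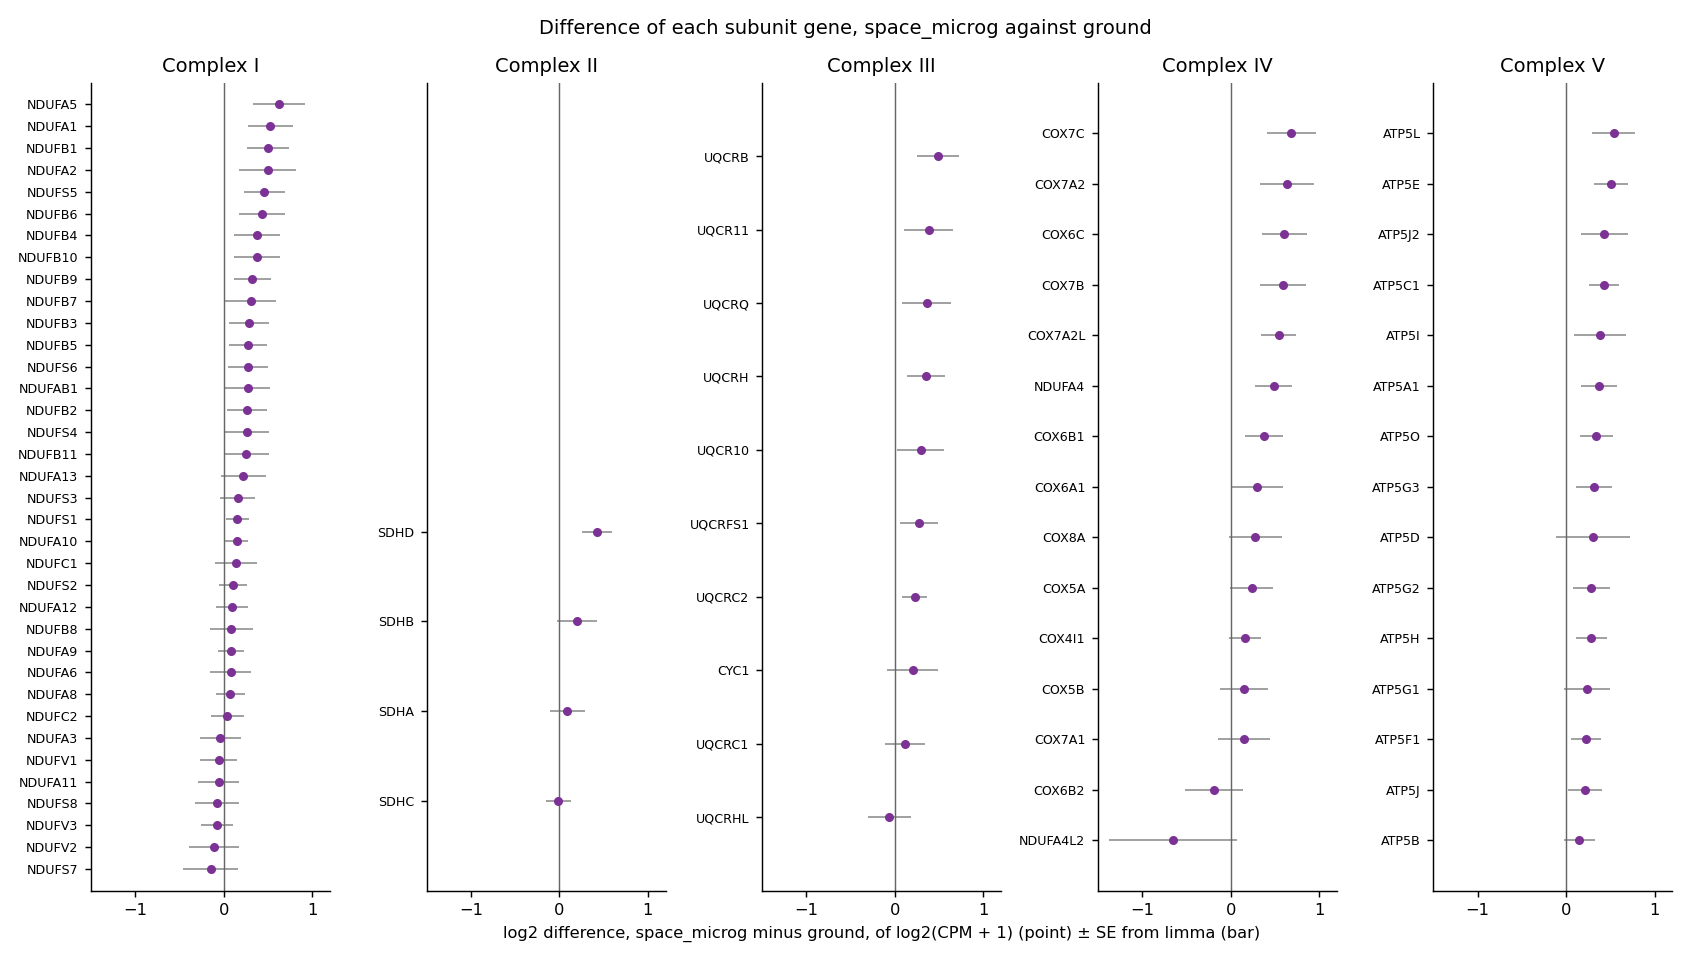
Each point is the difference in log2(CPM + 1) of a gene, space_microg minus ground (horizontal axis), with its SE from limma as the bar, in 5 panels by complex and sorted within each. COX7C is farthest to the right at 0.68 and NDUFA4L2 farthest to the left at -0.65, and all points of complex V lie above 0.

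Within complex I, the accessory and the core subunits differed in their medians. The core subunits carry the flavin, the iron-sulfur clusters and the quinone site, and the accessory subunits surround them and are needed for assembly and stability. Of 29 accessory genes, 26 were higher in space_microg than in ground, with a median of 0.26, and of 7 core genes 3 were higher, with a median of -0.05. The median of the core genes turned to 0.08 with length and GC trends removed (0.23 for the accessory genes), to 0.12 without space_microg replicate 2, to 0.14 without ground replicate 3 and to 0.01 without ground replicate 2. Without space_microg replicate 3 it was -0.00, and that of the accessory genes 0.07. The core genes ranged from -0.15 (NDUFS7) to 0.16 (NDUFS3). The difference between the 2 classes was not tested, and the NDUFV2 value is uncertain because its processed copy NDUFV2P1 is also in the table.

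The accessory genes with the largest differences were NDUFA5 and NDUFA1. NDUFA5 encodes a subunit of the peripheral arm, on chr7:123536997-123558255 in GENCODE v29 (GRCh38). It had 53.6, 55.8 and 62.5 CPM in space_microg, 27.4 and 49.6 CPM in space_1g, and 46.9, 44.0 and 24.1 CPM in ground. All space_microg libraries stood above all others, and the lowest levels were in the 2 libraries that the first component set apart. The difference from ground was 0.62 ± 0.29 (SE, adjusted p = 0.866 in limma). NDUFA1, a small membrane subunit encoded on the X chromosome, had 12.1, 11.9 and 19.9 CPM in space_microg, 8.84 and 9.63 CPM in space_1g, and 11.6, 7.89 and 9.50 CPM in ground. Its groups did not overlap, but space_microg replicate 2 exceeded ground replicate 1 by little, and the difference was 0.53 ± 0.25 (adjusted p = 0.866 in limma). Without space_microg replicate 3 it was 0.30 ± 0.23, and the difference of NDUFA5 without the 2 libraries that the first component set apart was 0.32 ± 0.14.

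NDUFB1, the least abundant complex I gene by mean CPM, had 7.09, 8.75 and 11.1 CPM in space_microg, 4.62 and 6.12 CPM in space_1g, and 6.26, 6.77 and 5.00 CPM in ground. Every space_microg library was above every other library, by 0.50 ± 0.24 against ground (adjusted p = 0.866 in limma). NDUFS1, the largest core subunit and the complex I gene with the highest mean CPM, had 197, 223 and 217 CPM in space_microg, 179 and 213 CPM in space_1g, and 182, 192 and 197 CPM in ground. Its space_microg and ground groups overlapped slightly, since space_microg replicate 1 lay just below ground replicate 3, and the difference was 0.15 ± 0.13. Its transcript model of 11819 bases is long, which lowers its level per kilobase to 16.9 CPM, against 95.6 CPM for the core gene NDUFS8, the highest of complex I.

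Complex II, succinate dehydrogenase, is the only respiratory complex with all subunits encoded in the nucleus. Its 4 genes did not move together. SDHD, a membrane anchor on chr11:112086773-112120013, had 72.1, 83.1 and 97.5 CPM in space_microg, 66.4 and 85.2 CPM in space_1g, and 67.9, 62.0 and 56.8 CPM in ground. The space_microg libraries stood above the ground libraries and overlapped space_1g, with a difference from ground of 0.42 ± 0.17 (adjusted p = 0.866 in limma). SDHC, the other anchor, had 67.1, 78.1 and 74.6 CPM in space_microg, 70.8 and 73.7 CPM in space_1g, and 74.8, 80.2 and 66.6 CPM in ground. Its groups overlapped fully, the difference was -0.01 ± 0.14, and its range over the 8 libraries, 0.26 on the log2 scale, was the smallest of all 82 genes.

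The catalytic subunits followed another pattern. SDHA, the flavoprotein, had 181, 150 and 192 CPM in space_microg, 207 and 182 CPM in space_1g, and 138, 144 and 216 CPM in ground. SDHB, which carries the iron-sulfur clusters, had 62.4, 66.4 and 76.9 CPM in space_microg, 73.9 and 65.2 CPM in space_1g, and 55.5, 45.2 and 83.8 CPM in ground. In both genes ground replicate 3 was the highest library, and the groups overlapped. The differences between space_microg and ground were 0.09 ± 0.20 for SDHA and 0.20 ± 0.22 for SDHB.

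Complex III passes electrons from ubiquinol to cytochrome c. Its small accessory genes had the larger differences, led by UQCRB and UQCR11. UQCRB, the ubiquinone-binding subunit, had 61.3, 71.1 and 101 CPM in space_microg, 38.1 and 58.6 CPM in space_1g, and 63.3, 50.9 and 49.5 CPM in ground. Its space_microg libraries all exceeded space_1g and overlapped ground replicate 1, with differences of 0.68 ± 0.26 from space_1g (adjusted p = 0.912 in limma) and 0.48 ± 0.24 from ground (adjusted p = 0.866). Without space_microg replicate 3 the difference from ground was 0.28 ± 0.23. UQCR11 had 19.7, 18.6 and 38.6 CPM in space_microg, 18.9 and 24.1 CPM in space_1g, and 20.0, 16.5 and 18.8 CPM in ground. Its difference from ground, 0.38 ± 0.28, rested on space_microg replicate 3, since replicates 1 and 2 lay within the ground range and the difference without it was 0.05 ± 0.20.

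The core protein gene UQCRC1, with the highest mean of complex III, had 157, 137 and 201 CPM in space_microg, 195 and 168 CPM in space_1g, and 132, 125 and 207 CPM in ground. Ground replicate 3 was its highest library and the difference was 0.11 ± 0.23. The catalytic genes CYC1, encoding cytochrome c1, and UQCRFS1, encoding the Rieske protein, were at 0.20 ± 0.29 and 0.27 ± 0.21. UQCRHL, a retrogene of UQCRH, was at 0.827 to 1.68 CPM in every library, and its reads cannot be safely separated from those of its parent gene.

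Complex IV, cytochrome c oxidase, held 5 of the 8 genes at an unadjusted p under 0.05. The GC contents of these 8 genes are given below. COX7C, a small subunit gene on chr5:86617904-86620962, had 64.3, 71.9 and 115 CPM in space_microg, 35.4 and 58.6 CPM in space_1g, and 62.4, 46.7 and 43.1 CPM in ground. All space_microg libraries were above all others, replicate 1 by little and replicate 3 by far. The means were 83.8 ± 27.4 CPM in space_microg (SD, n = 3), 47.0 ± 16.5 CPM in space_1g (n = 2) and 50.7 ± 10.3 CPM in ground (n = 3). Its difference from ground, 0.68 ± 0.28 (adjusted p = 0.866 in limma), was the highest of the 82 genes. COX7A2, the widely expressed isoform of a dimer-contact subunit, had 57.5, 78.0 and 123 CPM in space_microg, 42.2 and 74.5 CPM in space_1g, and 60.9, 45.3 and 51.6 CPM in ground. Replicate 1 of space_microg lay inside the ground range, and the difference was 0.64 ± 0.30. Without space_microg replicate 3 the differences were 0.43 ± 0.26 for COX7C and 0.35 ± 0.28 for COX7A2.

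COX7A2L, a factor that joins complexes III and IV into supercomplexes, had 59.0, 85.3 and 95.6 CPM in space_microg, 63.4 and 71.2 CPM in space_1g, and 59.9, 54.4 and 47.0 CPM in ground. It was 1 of 2 members with both space_1g libraries above all ground libraries, the other being NDUFA10, while space_microg replicate 1 fell below ground replicate 1. Its differences from ground were 0.54 ± 0.20 in space_microg (adjusted p = 0.866 in limma) and 0.32 ± 0.22 in space_1g. NDUFA4, first assigned to complex I and now to complex IV, was at 0.49 ± 0.21, COX7B at 0.59 ± 0.26 and COX6C at 0.61 ± 0.25, all against ground. COX6C has 17 pseudogenes named after it in GENCODE v29, more than any other member. Its reads may be shared with them, which was not tested. COX4I1, the regulatory subunit with the highest mean CPM of the complex, had 200, 186 and 274 CPM in space_microg, 194 and 219 CPM in space_1g, and 201, 171 and 214 CPM in ground. It was at 0.16 ± 0.18 and at 293 CPM per kilobase, next to the highest per-length value among the 82 genes, 295 CPM for ATP5B.

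Complex V, the ATP synthase, showed the most uniform direction against ground. ATP5E, the small epsilon subunit of the central stalk, on chr20:59025467-59032382, had 58.6, 57.8 and 89.0 CPM in space_microg, 48.6 and 49.9 CPM in space_1g, and 52.1, 42.6 and 46.2 CPM in ground. All space_microg libraries stood above all 5 others, by 0.51 ± 0.19 against ground (adjusted p = 0.866 in limma). ATP5C1, the gamma subunit that rotates in the head, had 109, 133 and 144 CPM in space_microg, 90.7 and 123 CPM in space_1g, and 101, 94.8 and 88.5 CPM in ground. Its space_microg and ground libraries did not overlap, with a difference of 0.43 ± 0.17 (adjusted p = 0.866 in limma). ATP5L, a membrane subunit of the dimer interface, had 52.5, 60.2 and 90.8 CPM in space_microg, 37.8 and 48.5 CPM in space_1g, and 55.9, 37.9 and 43.7 CPM in ground. It was the largest difference of the complex at 0.53 ± 0.24, although space_microg replicate 1 lay below ground replicate 1. Without space_microg replicate 3 the differences were 0.31 ± 0.16 for ATP5E and 0.31 ± 0.22 for ATP5L.

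The catalytic head is made of alpha and beta subunits. ATP5A1, the alpha subunit, had 383, 442 and 509 CPM in space_microg, 270 and 429 CPM in space_1g, and 355, 319 and 352 CPM in ground, with no overlap between space_microg and ground and a difference of 0.37 ± 0.20. ATP5B, the beta subunit and the member with the highest mean CPM, had 535, 531 and 653 CPM in space_microg, 486 and 578 CPM in space_1g, and 499, 455 and 599 CPM in ground. Its groups overlapped at 0.15 ± 0.17. ATP5I, the least abundant gene of the complex, had 5.95, 5.46 and 10.5 CPM in space_microg, 5.85 and 4.27 CPM in space_1g, and 5.64, 3.79 and 6.37 CPM in ground. It overlapped too, at 0.38 ± 0.30.

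**Figure D3:**
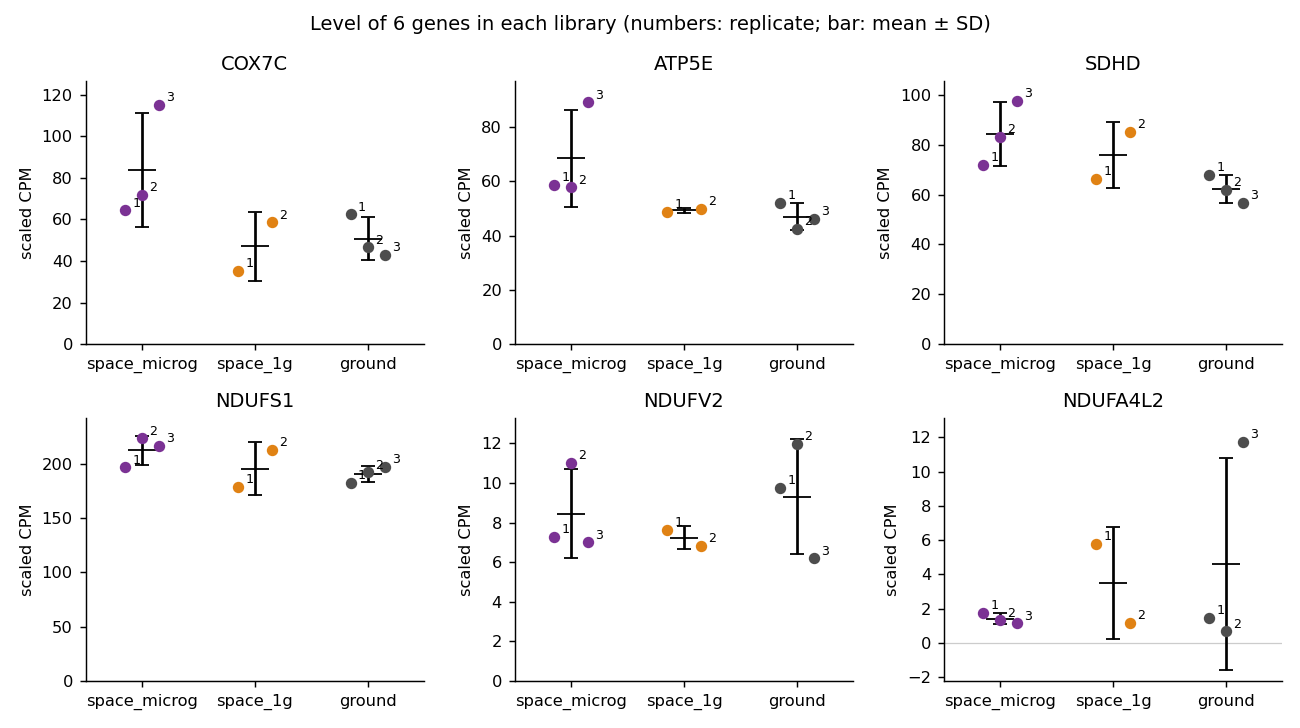
Scaled CPM (vertical axis) of 6 genes in space_microg, space_1g and ground, with each library as a numbered point and the mean ± SD as a bar; the SD bar of NDUFA4L2 in ground reaches below 0, which is no possible level. COX7C, ATP5E and SDHD have all 3 space_microg points above all 3 ground points, whereas NDUFS1, NDUFV2 and NDUFA4L2 overlap.

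Alternative isoforms stayed minor in most libraries, with the exceptions in the 2 libraries that the first component set apart. NDUFA4L2, a paralogue of NDUFA4 known to be induced in hypoxia, had 1.77, 1.31 and 1.14 CPM in space_microg, 5.79 and 1.17 CPM in space_1g, and 1.46, 0.677 and 11.7 CPM in ground. Ground replicate 3 and space_1g replicate 1 were high and the other 6 libraries were low. Relative to the CPM of NDUFA4, it stood at 12.0% in space_1g replicate 1 and 22.4% in ground replicate 3, against 1.17% to 3.05% elsewhere. Its difference between space_microg and ground, -0.65 ± 0.72, was the lowest of the 82 genes, and its range over the libraries, 2.92 on the log2 scale, was the widest. Without those 2 libraries the difference was 0.24.

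COX6B2, the testis isoform of COX6B1, had 1.22, 1.81 and 1.58 CPM in space_microg, 4.36 and 1.62 CPM in space_1g, and 1.09, 1.99 and 2.79 CPM in ground. It too was highest in space_1g replicate 1 and next in ground replicate 3. COX7A1, the muscle isoform, was at 0.529 to 1.95 CPM, or 0.709% to 2.77% of COX7A2, with no group apart. The widely expressed isoforms COX6A1, COX6B1 and COX8A were at 0.30 ± 0.30, 0.38 ± 0.22 and 0.28 ± 0.30 against ground. The proteolipid of the ATP synthase ring, subunit c, is made from 3 genes with different leader peptides. ATP5G1 gave 12.2% to 15.5% of their summed CPM over all libraries, ATP5G2 57.7% to 60.8% and ATP5G3 25.8% to 29.6%, so their proportions varied little while their differences between space_microg and ground were 0.23 ± 0.26, 0.28 ± 0.21 and 0.31 ± 0.20.

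In space_1g against ground the genes as a set lay close to all genes. The comparison shares the 3 ground libraries with that of space_microg. The difference was above 0 for 52 of 82 genes (63.4%), against 51.2% of all genes, and its median was 0.03, against 0.01. In limma 0% of all genes were called. At an unadjusted p under 0.05 the counts were 0 members in limma, edgeR and DESeq2, against 1.55%, 1.41% and 2.03% of all genes in the same order. Libraries separated upward in 2 members (2.44%, against 4.94%) and downward in 1 (1.22%, against 5.73%). Both shares were below those of all genes.

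The 3 separated genes were named after their values were seen. NDUFA10, an accessory subunit of complex I, had 82.3 and 87.5 CPM in space_1g and 74.1, 76.0 and 81.8 CPM in ground, a difference of 0.14 ± 0.14. NDUFA3, a membrane subunit, had 6.34 and 6.15 CPM in space_1g and 8.34, 7.21 and 9.72 CPM in ground, the lowest difference of the set at -0.37 ± 0.26. COX7A2L is given above. The highest difference was 0.39 ± 0.33 for COX6A1, whose groups overlapped. By complex the medians were 0.01 for complex I, 0.24 for complex II, 0.06 for complex III, 0.10 for complex IV and 0.00 for complex V.

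The sign of the median over all members, and of those of complexes I, III and V, turned with single libraries, while the median of complex II stayed between 0.10 and 0.33 and that of complex IV between 0.00 and 0.26. Space_1g replicate 1 was the lowest library for 19 of the 82 genes, and replicate 2 for 4. Without replicate 1 the median was 0.16 with 66 genes higher, and without replicate 2 it was -0.06 with 33 higher. Without ground replicate 2 it was -0.06 with 29 higher, and without both libraries that the first component set apart it was 0.22 with 65 higher.

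Space_microg against space_1g compares weightlessness with the centrifuge on the same flight. The difference was above 0 for 67 of 82 genes (81.7%), against 46.6% of all genes, with a median of 0.19 against -0.03. No gene was called in limma (0%), and the lowest adjusted p of a member was 0.912. At an unadjusted p under 0.05 limma counted 3 members (3.66%), against 1.32% of all genes, namely NDUFB1 at 0.64 ± 0.26, UQCRB at 0.68 ± 0.26 and COX7C at 0.82 ± 0.31. edgeR counted 4 (4.88%, against 1.37% of all genes) and DESeq2 5 (6.10%, against 2.11%). In 17 members (20.7%) every space_microg library was above both space_1g libraries, against 7.24% of all genes, and in 0 was every one below, against 6.91%. Of these 17, 9 belonged to complex I, 5 to complex V, 2 to complex III and 1 to complex IV.

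With all libraries complex V had a median of 0.40, with 14 of 15 genes higher, complexes I and III 0.19, complex IV 0.16 and complex II 0.00. Without space_1g replicate 1 the median of complex V was 0.11, below that of complex IV at 0.14. ATP5L was at 0.61 ± 0.27, ATP5G3 at 0.51 ± 0.23, ATP5E at 0.44 ± 0.22 and ATP5H, a stator subunit, at 0.42 ± 0.20, each with no overlap of the groups. NDUFA4L2 was again lowest, at -0.68 ± 0.81, and was at 0.14 without space_1g replicate 1. Without space_1g replicate 1 the median over all members was 0.08 with 57 of 82 genes higher, and without space_1g replicate 2 it was 0.26 with 67 higher. Without space_microg replicate 3 it was 0.05 with 53 higher. At an unadjusted p under 0.05 limma counted 0 members without space_microg replicate 3, against 0.44% of all genes. Without space_microg replicate 1 it counted 10 members (12.2%), against 1.85% of all genes.

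**Figure D4:**
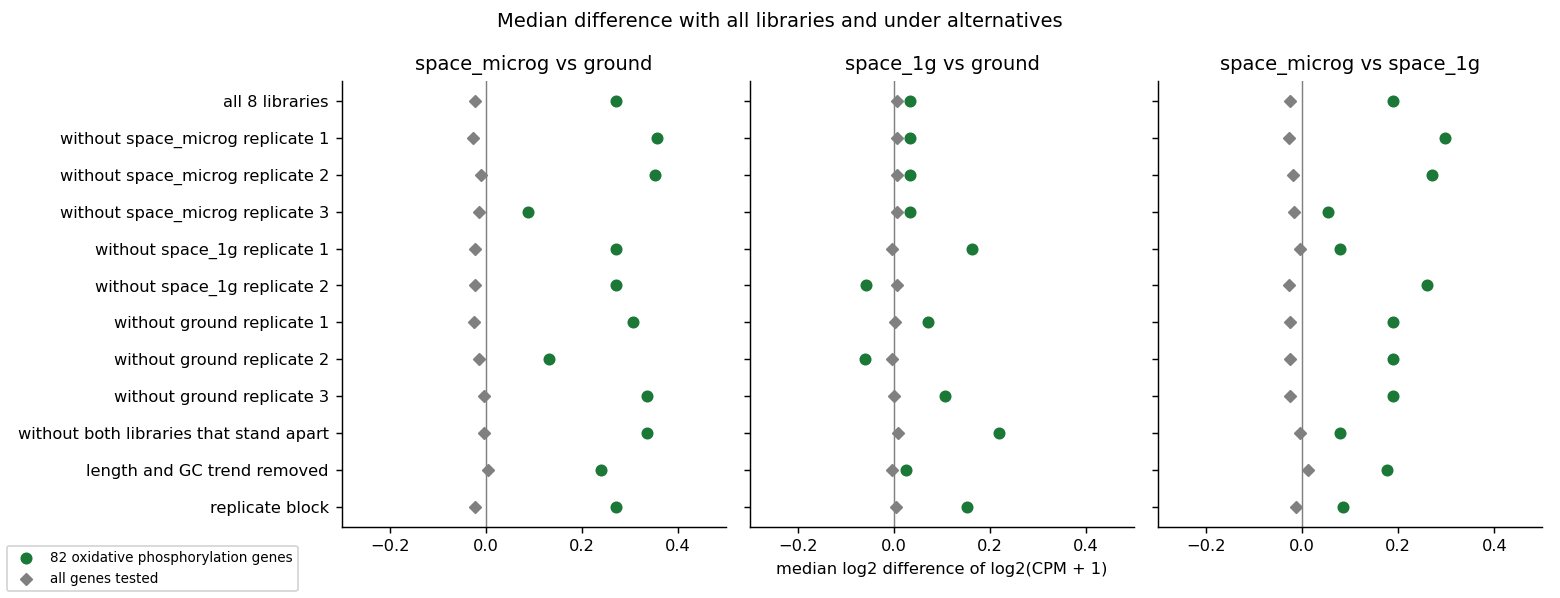
Median difference in log2(CPM + 1) (horizontal axis) of the 82 genes (circles) and of all genes tested (diamonds) with all 8 libraries, without each library in turn, without the 2 libraries that the first component set apart, with length and GC trends removed and with a replicate block. In space_microg against ground the circles run between 0.09 and 0.36, and in space_1g against ground they lie on both sides of 0.

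Levels of most members followed the same libraries. Of the 82 genes, 76 (92.7%) had a positive Pearson correlation with the median of the other 81 over the 8 libraries, with a median r of 0.78, against 49.6% of the 16021 genes that are no members, with a median r of -0.01. With group means removed the share was 93.9% of the members, with a median r of 0.81, against 50.8%, and without space_microg replicate 3 it was 90.2%, with a median r of 0.59, against 51.1%. The values share libraries, depth and scaling, so this is a description. ATP5J, a stator subunit (r = 0.99), UQCR10 (r = 0.98) and NDUFS3 (r = 0.97) were closest to the median of all 82, which includes them. The 6 genes with a negative r to that median were NDUFV2 (-0.56), COX6B2 (-0.28), NDUFV3 (-0.23), SDHC (-0.17), ATP5S (-0.04) and NDUFA4L2 (-0.03). NDUFV2, a core subunit of the NADH-oxidising arm, had 7.29, 11.0 and 7.01 CPM in space_microg, 7.64 and 6.83 CPM in space_1g, and 9.76, 12.0 and 6.19 CPM in ground. It was thus highest in ground replicate 2 and space_microg replicate 2, where most other members were not.

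The genes are short, with a median transcript model of 945 bases against 2566.5 bases for all genes tested, and their median GC content was 50.7% against 49.5%. GC content moved with the difference between space_microg and ground in all genes, with a Spearman rho of -0.42 over the 82 genes and -0.47 over 14158 genes with a model, given as a description. The 22 members under 45% GC had a median of 0.43, against 0.15 for all genes of that range. The 23 members of 55% GC or more had a median of 0.22, against -0.17 for all genes of that range. At each GC range the members' median was thus above that of all genes. COX7C, ATP5E, SDHD and ATP5C1 had GC contents of 41.6%, 38.3%, 41.0% and 42.3%. COX6C, COX7A2L, COX7B and NDUFA4 had 40.0%, 43.2%, 41.5% and 40.4%. These were the 8 members at an unadjusted p under 0.05 in limma, and all lay under 45% GC. In that range 74.8% of all genes and 95.5% of the members were higher in space_microg than in ground. After each library's trend on length and GC was removed, the median was 0.24 over the 82 genes with 72 higher, against 0.00 over all genes.

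**Figure D5:**
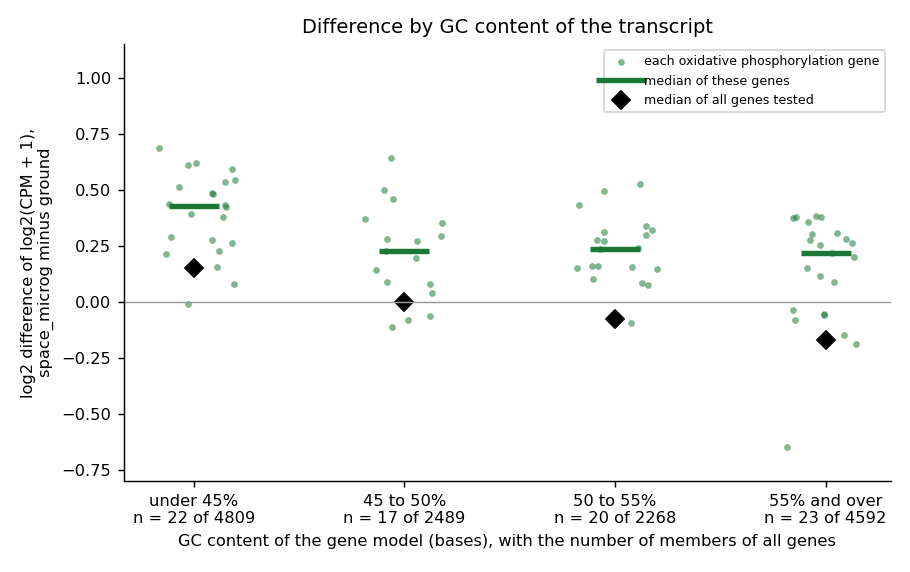
Difference in log2(CPM + 1), space_microg minus ground (vertical axis), against the GC content of the transcript model in 4 ranges, with each of the 82 genes as a point, their median as a bar and the median of all genes tested as a diamond. The bar stands above the diamond in each range, and both are highest under 45% GC, at 0.43 and 0.15.

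Members were also split by promoter matches and by pseudogenes. The 16 members with an ETS match were all higher in space_microg than in ground, with a median of 0.30, and 41 of the 51 without one were higher, with a median of 0.24. The 13 with an NRF1 match had a median of 0.27 and the 54 without one 0.26. For SP1 the medians were 0.23 in 38 with a match and 0.29 in 29 without. For YY1 they were 0.15 in 3 and 0.27 in 64, and for the CCAAT box 0.28 in 21 and 0.25 in 46. These splits by motif were not tested. GENCODE v29 names a pseudogene after 45 of the 82 genes. Of these, 42 were higher in space_microg than in ground, with a median of 0.28, against 28 of 37 without one, with a median of 0.20. Reads of a gene with many processed copies may be split between them, and the part of this in the differences was not tested.

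Genes that work with the complexes were described from lists, of which no gene was called in limma in any comparison. Of 15 measured assembly factors of complex I, 8 were higher in space_microg than in ground, with a median of 0.02. The 4 assembly factors of complex II were all higher, with a median of 0.45, led by SDHAF3 at 0.96 ± 0.25 and SDHAF4 at 0.69 ± 0.27. SDHAF3, which helps mature the iron-sulfur subunit, had 2.73, 2.68 and 4.06 CPM in space_microg, 1.27 and 2.42 CPM in space_1g, and 0.801, 1.27 and 1.32 CPM in ground. It was higher in every space_microg library than in any other library, at levels near the filter of 1 CPM. Assembly factors of complex III were higher in 4 of 6, with a median of 0.07, those of complex IV in 16 of 22, with a median of 0.08, and those of complex V in 4 of 4, with a median of 0.16. COX11, which delivers copper to complex IV, stood at 0.54 ± 0.20.

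The mobile carrier cytochrome c (CYCS) was at 0.26 ± 0.14, and 8 of 10 genes of electron carriers and coenzyme Q synthesis were higher in space_microg than in ground, with a median of 0.14. In the citric acid cycle 10 of 13 genes were higher, with a median of 0.12, including FH, fumarate hydratase, at 0.39 ± 0.15 and SUCLG2 at 0.44 ± 0.19. Among regulators of mitochondrial gene expression 8 of 13 were higher, with a median of 0.00. TFAM, which packages mitochondrial DNA, was at 0.30 ± 0.16, and POLG, the mitochondrial DNA polymerase, at -0.38 ± 0.13 (adjusted p = 0.866 in limma). POLG had 148, 122 and 128 CPM in space_microg, 160 and 149 CPM in space_1g, and 162, 172 and 182 CPM in ground, so all 3 groups were apart. Glycolysis genes were higher in 12 of 19, with a median of 0.07, mitochondrial antioxidant enzymes in 5 of 6, with a median of 0.16, and mitochondrial carriers in 5 of 7, with a median of 0.07.

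Among the regulators, 3 transcription factors known to act on respiratory promoters were NRF1, GABPA, which binds the ETS motif, and ESRRA, an orphan nuclear receptor. NRF1 had 24.0, 26.8 and 26.0 CPM in space_microg, 21.5 and 28.2 CPM in space_1g, and 26.9, 31.5 and 22.2 CPM in ground, with overlapping groups. GABPA had 77.9, 94.9 and 94.3 CPM in space_microg, 34.9 and 80.7 CPM in space_1g, and 90.9, 92.2 and 47.6 CPM in ground. ESRRA had 30.4, 20.5 and 35.0 CPM in space_microg, 53.8 and 29.5 CPM in space_1g, and 20.8, 18.0 and 57.5 CPM in ground. In GABPA and ESRRA, space_1g replicate 1 and ground replicate 3 lay outside all other libraries, low for GABPA and high for ESRRA. Their part in the members' levels was not tested.

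Other gene groups moved with the members from library to library. Cytosolic ribosomal protein genes were higher in space_microg than in ground in 80 of 81, with a median of 0.49, and their median deviations were -0.03, 0.22 and 0.67 in space_microg, -0.36 and 0.10 in space_1g, and -0.14, -0.32 and -0.13 in ground. Mitochondrial ribosomal protein genes were higher in 62 of 77, with a median of 0.14, and their deviations were -0.03, 0.05 and 0.32, then -0.05 and 0.04, then -0.03, -0.31 and 0.18 in the same order. In both groups space_microg replicate 3 was the highest library and in the mitochondrial one ground replicate 2 the lowest, as for the members. Endothelial markers were higher in 0 of 9, with a median of -0.42. CD14 was the only measured leukocyte marker of 5, at 1.04 to 2.88 CPM. Of fibroblast markers, PDGFRB and COL1A1 of 6 were measured, with sums of 162, 125 and 250 CPM in space_microg, 99.0 and 257 CPM in space_1g, and 178, 193 and 152 CPM in ground. Keratinocyte markers KRT10 and DSG3, of 6, summed to 1.63 to 4.63 CPM, and erythroid markers were measured in 0 of 3. The part of these groups in the members' differences was not tested.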

How the data were processed

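The labels' protocols name total RNA, a stranded kit and removal of ribosomal RNA. The deposited table holds a scaled signal for each gene, given as CPM per the labels and made of whole reads divided by library size; the columns sum to 966156 to 1061177. Per the submitters' processing notes, the tools were STAR 2.5.3, featureCounts, edgeR, FastQC and CASAVA 1.8.2 and the build was hg38, with no roles named. Whole reads were recovered for 100% of values within 1e-06 read. No source used here says how strand entered the counting.

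Genes with at least 1 CPM in at least 2 libraries were kept (16103 genes, all 82 members). limma 3.58.1 in R 4.3.3 was fitted to log2(CPM + 1) over all 8 libraries with a mean trend, two-sided, with Benjamini-Hochberg adjustment over all kept genes at 0.05. Such fold changes understate those of low genes. The steps were tested on simulated data. Alternatives were pseudocounts, filters, scalings, edgeR 4.0.16 and DESeq2 1.42.0 on recovered reads, trends on length and GC removed with mgcv 1.9.3, a replicate block and each library left out. Leaving out both libraries that stand apart, and correlating members with group means removed or without space_microg replicate 3, were added after seeing the data. The members and lists were chosen with earlier results of these data known. Members named with values were, in each complex, the 2 with the largest difference between space_microg and ground at a mean of at least 5 CPM and those with the highest and lowest mean CPM, then isoform sets, and all of succinate dehydrogenase; other genes were named after their values were seen. Transcript models are from GENCODE v29 and promoters from RefSeq. Of the 16103 genes, 14158 had a model.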

Additional observations from a re-analysis of the deposited data

How the results depend on the processing

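In limma 0 genes were called in any comparison, with all libraries and under each limma alternative. At an unadjusted p under 0.05 it counted 696 genes in space_microg against ground, 249 in space_1g against ground and 212 between the flight groups. edgeR called 0, and DESeq2 called 3 genes in space_microg against ground, 0 of them members, and 0 elsewhere. Replicate numbers are not known to pair the libraries, and the deviations were mixed in sign: those of same-numbered space_microg and ground libraries correlated at -0.40, 0.56 and 0.05, those of space_1g and ground at -0.68 and 0.60, and those of space_microg and space_1g at 0.68 and 0.20. With the replicate block the members' medians were 0.27, 0.15 and 0.08 in the order above, with 4, 5 and 2 members (the last 2 lower in space_microg) and 1013, 759 and 850 genes at an unadjusted p under 0.05, and 0 genes called. With the block and the length and GC trends removed the medians were 0.24, 0.12 and 0.09. Leaving out each library in turn gave medians of 0.09 to 0.36, of -0.06 to 0.16, and of 0.05 to 0.30, with 0 genes called each time. With space_1g at 1 library, that library is assumed to vary like the other groups. The share of members above 0 in space_microg against ground was 70 of 82 under each pseudocount and scaling. Near 1 CPM, as in COX7A1 and UQCRHL, few reads limit any difference.

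The sign of a named gene's log2 difference, a difference that passed no adjusted threshold, turned in 121 of 2037 values under the alternatives: 17 of 679 in space_microg against ground, 65 in space_1g against ground and 39 between the flight groups. The cause was not tested. In space_microg against ground, with the length and GC trends removed, SDHC stood at 0.025. With the replicate block and the length and GC trends removed, SDHC stood at 0.025. Without both libraries that stand apart, COX6B2 stood at 0.013 and NDUFA4L2 at 0.24. In edgeR, SDHC stood at 0.023. Leaving out each library in that comparison gave -0.082 to 0.051 for SDHC, -0.23 to 0.062 for UQCRHL, -0.0076 to 0.27 for COX4I1, -0.11 to 0.30 for COX7A1, -0.034 to 0.34 for UQCRC1, -0.027 to 0.29 for SDHA, -0.42 to 0.013 for COX6B2 and -1.23 to 0.24 for NDUFA4L2. In space_1g against ground, with a pseudocount of 4, NDUFA4L2 stood at -0.053. With median-of-ratios scaling, COX7B stood at -0.0040 and NDUFA5 at -0.0033. With the replicate block, ATP5G1 stood at 0.0082, ATP5I at 0.16, ATP5L at 0.025, COX7A1 at 0.065, NDUFA1 at 0.066 and NDUFA5 at -0.11. With the length and GC trends removed, ATP5I stood at 0.0026 and NDUFA4L2 at -0.049. With the replicate block and the length and GC trends removed, ATP5G1 stood at 0.0087, ATP5I at 0.24, ATP5L at 0.016, NDUFA1 at 0.014, NDUFA5 at -0.058, NDUFB1 at 0.0052 and SDHC at 0.0095. Without both libraries that stand apart, ATP5G1 stood at 0.43, ATP5G2 at 0.17, ATP5G3 at 0.043, ATP5L at 0.075, COX7C at 0.12, NDUFA1 at 0.0054 and UQCRB at 0.046. In edgeR, COX7A1 stood at 0.025 and NDUFA4L2 at -0.39. In DESeq2, COX7A1 stood at 0.0037 and NDUFA4L2 at -0.42. Leaving out each library in that comparison gave -0.56 to 0.38 for ATP5G1, -0.40 to 0.17 for ATP5G2, -0.47 to 0.079 for ATP5G3, -0.25 to 0.10 for ATP5L, -0.13 to 0.90 for COX6B2, -0.49 to 0.22 for COX7C, -0.17 to 0.082 for NDUFA1, -0.79 to 0.92 for NDUFA4L2, -0.31 to 0.030 for NDUFB1, -0.10 to 0.033 for SDHC, -0.50 to 0.11 for UQCRB, -0.081 to 0.17 for ATP5B, -0.23 to 0.15 for ATP5I, -0.011 to 0.17 for COX4I1, -0.26 to 0.24 for COX7A1, -0.30 to 0.51 for COX7A2, -0.31 to 0.32 for COX7B, -0.16 to 0.17 for NDUFA4, -0.41 to 0.42 for NDUFA5 and -0.091 to 0.16 for NDUFS1. Between space_microg and space_1g, with the replicate block, COX4I1 stood at -0.041 and COX8A at -0.23. With the length and GC trends removed, SDHD stood at -0.026 and UQCRC1 at 0.029. With the replicate block and the length and GC trends removed, COX8A stood at -0.14 and SDHD at -0.062. Without both libraries that stand apart, ATP5B stood at -0.020, ATP5G1 at -0.15, COX4I1 at -0.010, COX6A1 at 0.013, COX6B1 at -0.0069, NDUFA4L2 at 0.14, NDUFS1 at -0.0046, SDHB at 0.067, SDHC at -0.012, SDHD at -0.027 and UQCRHL at -0.049. In edgeR, SDHB stood at 0.0011. Leaving out each library in that comparison gave -0.11 to 0.067 for SDHB, -0.29 to 0.058 for COX6A1, -0.030 to 0.078 for SDHC, -0.090 to 0.19 for COX4I1, -0.047 to 0.37 for COX6B1, -0.11 to 0.41 for COX7A1, -0.24 to 0.24 for COX8A, -0.15 to 0.36 for UQCR11, -0.083 to 0.18 for UQCRHL, -0.020 to 0.23 for ATP5B, -0.15 to 0.80 for ATP5G1, -1.5 to 0.14 for NDUFA4L2, -0.0046 to 0.25 for NDUFS1 and -0.027 to 0.33 for SDHD.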
